A study of Homo sapiens with 6 samples.

Results

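The Wnt pathway was followed through 59 of the 26364 gene symbols with deposited expression values. The 59 genes were taken by symbol, and the set was chosen with earlier results of these data known. It holds all genes named WNT, FZD, DKK1 to DKK4 or SFRP1 to SFRP5 with a number, and the antagonists FRZB and WIF1. It also holds the co-receptors LRP5 and LRP6, the R-spondins and their LGR receptors, and the intracellular proteins CTNNB1, APC and AXIN1. The TCF/LEF transcription factors and the feedback genes AXIN2, RNF43, ZNRF3 and NKD1 complete it. The 59 genes comprised 19 ligands, 12 frizzled and LRP receptors, 7 LGR receptors and R-spondins, 10 secreted antagonists, 3 intracellular components, 4 TCF/LEF factors and 4 feedback genes. RNAseq had been performed on A673/TR/shEF cells, a derivative of the Ewing sarcoma cell line A673 that expresses a tetracycline repressor and, upon doxycycline, an shRNA against the EWSR1::FLI1 chimeric mRNA. Cells of this same engineered line were left untreated in 3 libraries (EWSR1::FLI1 high) and received 1 µg/mL doxycycline for 72 h in the other 3 (EWSR1::FLI1 low). The libraries are written EF-high 1 to 3 and EF-low 1 to 3 after their replicate numbers, and values listed for a group follow that order. Both groups come from a single parental cell line, and without doxycycline-treated cells that lack the shRNA the effects of doxycycline and of the knockdown cannot be told apart. Whether the replicates are independent clones or repeated experiments differs between the submitters' descriptions, so the p-values measure the spread between these libraries, which may in part be technical.

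Wnt ligands are secreted proteins that bind a frizzled receptor, in the canonical branch together with LRP5 or LRP6. This inhibits a complex of APC, AXIN and GSK3 that marks β-catenin (CTNNB1) for degradation, and β-catenin then activates genes with TCF or LEF1, among them its own inhibitor AXIN2. R-spondins act through LGR receptors to keep the ubiquitin ligases ZNRF3 and RNF43 from removing frizzled receptors, whereas dickkopf proteins occupy the LRP co-receptors and SFRP proteins bind the ligands. DKK2 is known for its high expression in Ewing sarcoma.

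Expression is given in FPKM, a level per kilobase of gene, so that levels of different genes can be set side by side. Limma was run on log2(FPKM + 1), and each log2 fold change below is that of EF-low over EF-high cells on this scale, with its standard error (SE). Because of the added 1, changes of weakly expressed genes come out too small. A gene was called when its Benjamini-Hochberg adjusted p over all genes tested was under 0.01. A mean FPKM of at least 0.5 was required for testing, and 36 of the 59 genes met it. Of these 36, 4 were called higher and 2 lower in EF-low cells. These 6 genes are 16.7% of those tested, beside 7.88% of all 15504 genes tested, with 4.51% called higher and 3.37% called lower. Among the genes called higher, DKK1, DKK3 and WNT5B had EF-high means of 0.450, 0.281 and 0.367 FPKM. They therefore met the expression limit only through the EF-low libraries, where they were high. The uncalled WNT11, FRZB and FZD9, with EF-high means of 0.143, 0.433 and 0.437 FPKM, also met it only through the EF-low libraries. At an adjusted p under 0.05, 11 of the 36 passed (7 higher, 4 lower), which is 30.6% beside 19.8% of all genes. In 18 of the 36 (50%) the libraries of both groups did not overlap, beside 41.1% of all genes. The 23 genes that were not tested lay between 0 and 0.871 FPKM, with 16 of their 138 values listed at 0. When genes of any level were tested, limma called 0 of the 59 Wnt genes, beside 124 of all 26364 genes. Of the Wnt genes, 10 were higher and 7 lower with an unadjusted p under 0.05. The share of all genes with such a p was not counted, in this or any other fit. The median log2 fold change was 0.20 over the 36 genes and -0.05 over all genes tested.

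Between 6980361 and 16658933 reads lay on genes in the 6 libraries. EF-low 1 stood apart at low levels: the lower quartile over all symbols was 0.372 FPKM there and 0.143 to 0.232 FPKM in the other libraries. It also held the highest value for 14 of the 23 Wnt genes below the expression limit, and for 49.5% of all genes below it, so each call is also given without this library. That fit called more genes of any kind, 2334 of 14907 tested, beside 1222 of 15504 with all libraries. FLI1, the 3′ part of the targeted mRNA, was at 11.3, 12.7 and 14.2 FPKM in EF-high 1 to 3 and at 2.91, 4.29 and 3.68 FPKM in EF-low 1 to 3 (log2 fold change -1.57, adjusted p = 0.000676). The 5 Ewing sarcoma markers CD99, NKX2-2, NR0B1, STEAP1 and PPP1R1A summed to 341.5 to 379.5 FPKM in EF-high libraries and 131 to 136 FPKM in EF-low libraries. The 6 markers of other cell types (PTPRC, EPCAM, CDH1, PECAM1, MYOD1 and DES) summed to 1.56 to 2.22 FPKM and 2.54 to 3.34 FPKM, with MYOD1 listed at 0 in 3 libraries. PECAM1 was at 0.278 to 0.366 FPKM in EF-high and 0.879 to 1.56 FPKM in EF-low libraries. DES was at 0.0558 to 0.230 FPKM in EF-high and 0.434 to 0.700 FPKM in EF-low libraries. PTPRC, EPCAM, CDH1 and MYOD1 overlapped between the groups. Whether other cells had a part in the results below was not tested. In bulk RNA, fewer cells that express a gene and less of its RNA per cell cannot be told apart.

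RefSeq promoter sequences were matched to 41 of the 59 genes, among them 4 of the 6 called genes, DKK1, LGR4, WNT5B and FZD1, which are shown because they are the starts of the genes whose levels differed. Each is the 250 bases before the start, read 5′ to 3′ on the gene's strand, and each occurs exactly 1 time on its chromosome in GRCh37, at chr10:54073791-54074040 (plus strand), chr11:27494338-27494587 (minus), chr12:1725972-1726221 (plus, the first of 2 RefSeq starts) and chr7:90893498-90893747 (plus). Capitals mark CTTTGA on either strand (read as TCAAAG on the other), the core of the sequence that TCF/LEF factors bind.
DKK1: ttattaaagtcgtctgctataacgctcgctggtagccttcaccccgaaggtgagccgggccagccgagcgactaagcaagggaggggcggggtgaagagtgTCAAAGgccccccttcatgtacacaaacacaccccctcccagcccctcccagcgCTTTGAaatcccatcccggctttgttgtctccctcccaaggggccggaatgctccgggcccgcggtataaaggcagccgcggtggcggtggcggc
LGR4: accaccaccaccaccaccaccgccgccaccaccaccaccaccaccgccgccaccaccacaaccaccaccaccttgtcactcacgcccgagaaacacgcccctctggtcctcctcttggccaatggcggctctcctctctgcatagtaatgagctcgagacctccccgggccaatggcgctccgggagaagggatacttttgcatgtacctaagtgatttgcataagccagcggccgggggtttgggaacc
WNT5B: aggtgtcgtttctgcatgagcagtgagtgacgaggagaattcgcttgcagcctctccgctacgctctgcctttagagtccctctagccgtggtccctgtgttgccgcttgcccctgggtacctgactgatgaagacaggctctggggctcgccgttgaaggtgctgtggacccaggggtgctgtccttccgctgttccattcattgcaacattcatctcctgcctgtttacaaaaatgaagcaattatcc
FZD1: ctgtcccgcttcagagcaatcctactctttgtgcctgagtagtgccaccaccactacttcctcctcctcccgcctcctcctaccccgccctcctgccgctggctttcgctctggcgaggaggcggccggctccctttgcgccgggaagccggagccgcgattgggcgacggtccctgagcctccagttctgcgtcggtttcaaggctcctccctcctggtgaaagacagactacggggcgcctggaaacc

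The DKK1 promoter held 2 matches to CTTTGA, from 149 to 144 and from 95 to 90 bases before the start, and the promoters of LGR4, WNT5B and FZD1 held none. Over all 35116 RefSeq promoters, 11.2% had at least 1 match, beside 1 of the 51 promoters of the Wnt genes (1.96%). GGAAGGAA on either strand, a repeat of the GGAA core of ETS sites such as those bound by EWSR1::FLI1, was found in 3.06% of all promoters. Among the Wnt genes it was found in the promoters of RSPO3 and TCF7L2, both uncalled, and in none of these 4. A match describes the letters of this window and not a bound site.

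The largest differences lay among the dickkopf antagonists, which changed in opposite directions. DKK2 (ENSG00000155011, chromosome 4, 107842959 to 108204963, minus strand, GRCh37), an LRP-binding member that can also activate the receptor in some settings, was at 113, 92.4 and 99.4 FPKM in EF-high 1 to 3. In EF-low 1 to 3 it was at 29.2, 5.43 and 14.3 FPKM. The groups did not overlap, and the EF-low libraries were spread over a wider range than the EF-high libraries. The means were 101.8 ± 10.7 and 16.3 ± 12 FPKM (SD, n = 3 in each group), a ratio of 0.16, and the log2 fold change was -2.83 (SE 0.47, limma adjusted p = 0.00394). Without EF-low 1 it was -3.37 (adjusted p = 0.000272). The call was lost without any one of the EF-high libraries or without EF-low 3 (adjusted p from 0.0128 to 0.0218, log2 fold change from -2.90 to -2.75), and with quantile normalization (adjusted p = 0.0171).

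DKK1 (ENSG00000107984, chromosome 10, 54074041 to 54077802, plus strand), the founding dickkopf protein and a direct blocker of LRP6, was barely detected in EF-high cells. It was at 0.581, 0.556 and 0.215 FPKM in EF-high 1 to 3, from 11, 8 and 3 reads, of which the last equals the 3 reads taken as the floor of detection. In EF-low 1 to 3 it was at 7.85, 12.7 and 32.6 FPKM, from 126, 188 and 918 reads. All EF-low libraries were above all EF-high libraries, with replicate 3 the highest. DKK1 rose by a log2 fold change of 3.47 (SE 0.41, limma adjusted p = 0.000785), and by 3.90 without EF-low 1 (adjusted p = 0.000194). PRKG1-AS1 overlaps DKK1 and had a mean of 0.321 FPKM in EF-high and 0.327 FPKM in EF-low cells.

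DKK3 (ENSG00000050165, chromosome 11, 11977754 to 12031316, minus strand), the divergent member of the family that does not share the LRP6 inhibition of DKK1, was at 0.414, 0.126 and 0.302 FPKM in EF-high cells, from 13, 3 and 7 reads. In EF-low 1 to 3 it was at 13.6, 4.36 and 4.64 FPKM, from 361, 107 and 216 reads. Here replicate 1 was the highest of the EF-low libraries, whereas for DKK1 it was the lowest. DKK3 rose by a log2 fold change of 2.58 (SE 0.35, limma adjusted p = 0.00156), and by 2.11 without EF-low 1 (adjusted p = 0.00012). Its call was lost without EF-high 2 (adjusted p = 0.0103) and with limma-voom on recovered reads (adjusted p = 0.01003). USP47 overlaps DKK3 on the opposite strand in GENCODE, and whether strand was used in counting is not stated. The level of USP47 was 33.0 FPKM in EF-high and 31.8 FPKM in EF-low cells (log2 fold change -0.05, adjusted p = 0.861). DKK4 was uncalled at 0.314 to 1.24 FPKM over the 6 libraries (log2 fold change 0.10, adjusted p = 0.799).

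The make-up of the family differed accordingly. DKK2 gave 98.5% to 99.0% of the summed FPKM of the 4 dickkopf genes in EF-high libraries. Its share was 56.3%, 23.5% and 27.6% in EF-low 1 to 3, where DKK1 gave 15.1%, 55.0% and 62.8%. DKK2 therefore still led in replicate 1, while DKK1 led in replicates 2 and 3. The sum over the 4 genes was 103 ± 10.8 FPKM in EF-high and 42.3 ± 16.6 FPKM in EF-low cells (SD, n = 3). Each EF-low library, at 51.9, 23.1 and 51.9 FPKM, had a lower sum than each EF-high library. This sum is a description, since its direction follows from DKK2.

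**Figure D1:**
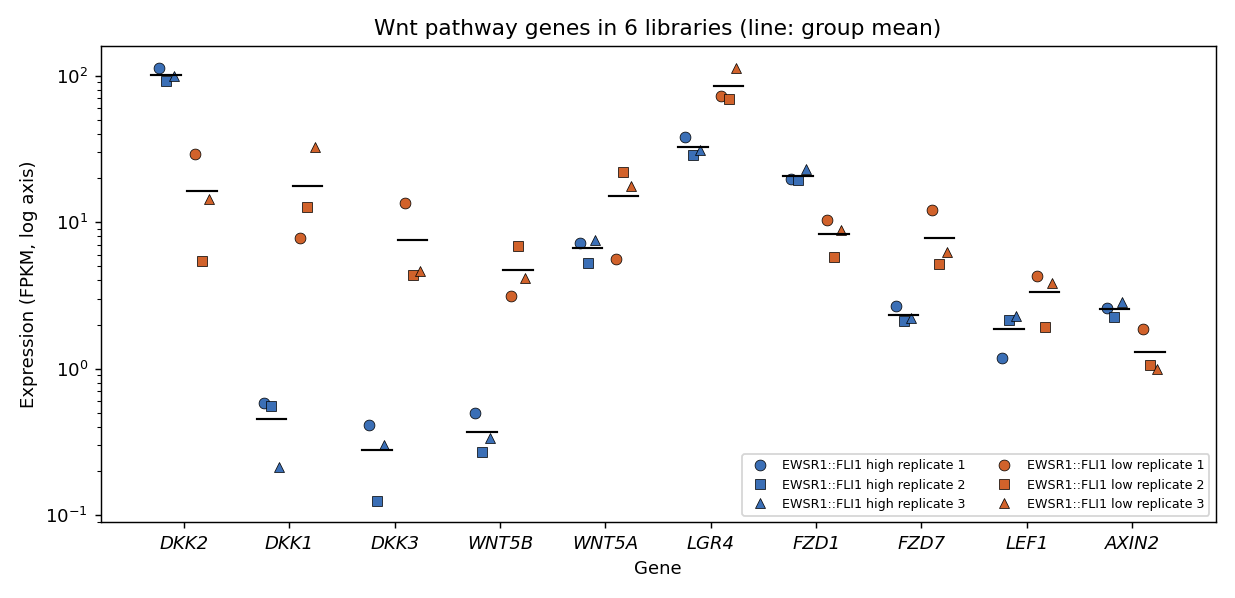
Expression in FPKM (log axis) of 10 Wnt pathway genes in the 3 EWSR1::FLI1 high (blue) and 3 EWSR1::FLI1 low (orange) libraries, with a line at each group mean and a marker shape for each replicate number. DKK2, FZD1 and AXIN2 lie lower and DKK1, DKK3, WNT5B, LGR4 and FZD7 higher in all EWSR1::FLI1 low libraries, while WNT5A and LEF1 overlap between the groups.

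**Figure D2:**
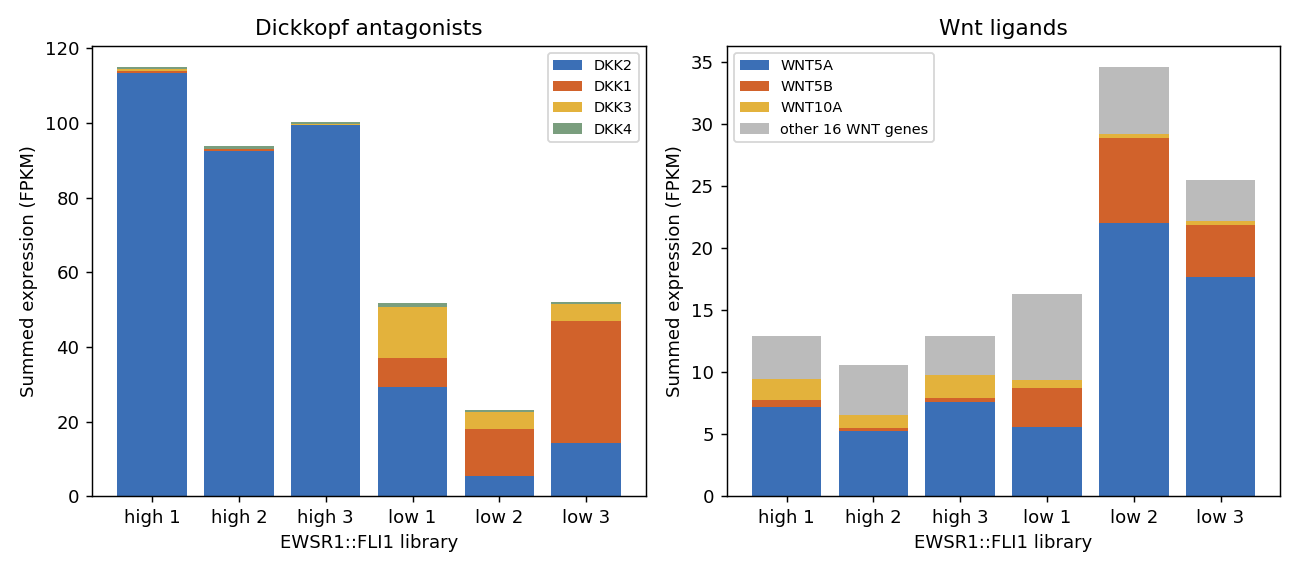
Summed expression (FPKM) of the 4 dickkopf genes (left) and the 19 Wnt ligand genes (right) in each library, stacked by gene. DKK2 fills nearly the whole bar in EWSR1::FLI1 high libraries, and DKK1 and DKK3 fill 41.3% to 73.9% of it in EWSR1::FLI1 low libraries.

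The other secreted antagonists act on the ligands, and none of them was called. Of the 6 genes SFRP1, SFRP2, SFRP4, SFRP5, FRZB and WIF1, only SFRP1 and FRZB met the expression limit. SFRP1 was at 0.917, 0.477 and 0.751 FPKM in EF-high and at 1.33, 4.26 and 2.47 FPKM in EF-low 1 to 3. The groups did not overlap, with a log2 fold change of 1.03 (limma adjusted p = 0.0325) that was 1.32 with an adjusted p of 0.00356 without EF-low 1. Leaving out any other single library gave SFRP1 an adjusted p from 0.0604 to 0.117. FRZB had a log2 fold change of 0.27 (adjusted p = 0.466), with its highest value, 1.46 FPKM, in EF-low 1.

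Of the 19 ligands, 6 were tested and WNT5B was the single gene called, beside 7.88% of all genes tested. WNT5B (ENSG00000111186, chromosome 12, 1639057 to 1756378, plus strand, GRCh37), which signals mainly without β-catenin, was at 0.495, 0.271 and 0.335 FPKM in EF-high 1 to 3, from 12, 5 and 6 reads. It was at 3.11, 6.86 and 4.17 FPKM in EF-low 1 to 3, from 64, 130 and 150 reads. All EF-low libraries were above all EF-high libraries, and the ratio of the mean levels was 12.8. The log2 fold change was 2.01 (SE 0.24, limma adjusted p = 0.000754), and 2.22 without EF-low 1 (adjusted p = 0.000264). FBXL14 overlaps the gene on the opposite strand and was at 5.15 and 4.70 FPKM in the groups (log2 fold change -0.10, adjusted p = 0.747).

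WNT5A, the close paralog of WNT5B, had the highest level of the ligands in both groups. It was at 7.22, 5.22 and 7.61 FPKM in EF-high and at 5.56, 22.0 and 17.7 FPKM in EF-low 1 to 3. EF-low 1 lay within the range of the EF-high libraries, and the other replicates of that group lay above it. The log2 fold change of 0.89 was uncalled (95% interval from -0.05 to 1.84, limma adjusted p = 0.167). Without EF-low 1 it was 1.45 with an adjusted p of 0.00122, so the call of WNT5A depended on that library. The fit without it called 2334 of all 14907 genes tested.

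WNT10A, a canonical ligand, was the second ligand by level in EF-high cells, at 1.73, 1.06 and 1.85 FPKM. It was at 0.663, 0.308 and 0.351 FPKM in EF-low 1 to 3, from 14, 6 and 13 reads. With an EF-low mean of 0.441 FPKM, WNT10A met the expression limit only through the EF-high libraries, where it was high. All EF-low libraries were below, with a log2 fold change of -0.81 (limma adjusted p = 0.0198) that had an adjusted p of 0.00902 without EF-low 1. With any other single library left out, the adjusted p of WNT10A was from 0.0283 to 0.0908. WNT11, another ligand of the β-catenin-independent branch, was detected with 2, 2 and 3 reads in EF-high and 25, 7 and 22 reads in EF-low 1 to 3. Its level was 0.099 to 0.201 FPKM in EF-high libraries, at or under the floor, and 1.46, 0.443 and 0.733 FPKM in EF-low libraries (adjusted p = 0.0574). WNT2B and WNT3 had log2 fold changes of 0.14 and -0.11 (adjusted p = 0.643 and 0.678).

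The other 13 ligands (WNT1, WNT2, WNT3A, WNT4, WNT6, WNT7A, WNT7B, WNT8A, WNT8B, WNT9A, WNT9B, WNT10B and WNT16) did not meet the expression limit. WNT6 and WNT9B were listed at 0 in all EF-high libraries and were detected with at most 4 reads in any EF-low library. The sum over the 19 ligand genes was 12.9, 10.6 and 12.9 FPKM in EF-high and 16.3, 34.5 and 25.5 FPKM in EF-low 1 to 3. WNT5A and WNT5B together gave 51.9% to 61.4% of this sum in EF-high libraries and 53.4%, 83.5% and 85.7% of it in EF-low 1 to 3.

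Among the receptors that bind the ligands, FZD1 was the one called of 11 tested, beside 7.88% of all genes tested. FZD1 (ENSG00000157240, chromosome 7, 90893748 to 90900641, plus strand, GRCh37) was at 19.8, 19.3 and 23.1 FPKM in EF-high and at 10.3, 5.77 and 8.79 FPKM in EF-low 1 to 3. The groups did not overlap, and the ratio of the mean levels was 0.401. FZD1 fell by 1.25 on the log2 scale (SE 0.22, limma adjusted p = 0.00575). Without EF-low 1 it fell by 1.41 (adjusted p = 0.00133). Leaving out any other single library ended the call, with an adjusted p from 0.0148 to 0.0362, as did quantile normalization (adjusted p = 0.015).

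FZD7, a receptor often linked to stem and progenitor cells, had a positive log2 fold change and came closest to the limit of the uncalled genes. It was at 2.70, 2.12 and 2.21 FPKM in EF-high and at 12.1, 5.16 and 6.22 FPKM in EF-low 1 to 3. The groups did not overlap, and EF-low 1 was the highest. The log2 fold change was 1.32 (SE 0.27, limma adjusted p = 0.0106), and 1.00 without EF-low 1, where the adjusted p was 0.00339. Without EF-low 2 the adjusted p was 0.00496, and without any one of the remaining libraries it was from 0.0248 to 0.0492.

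The co-receptor LRP6 had the highest level of this group of receptors, at 51.2, 42.2 and 47.6 FPKM in EF-high and 37.02, 28.6 and 31.9 FPKM in EF-low cells. Its groups did not overlap, but the log2 fold change of -0.52 was uncalled (95% interval from -0.94 to -0.10, limma adjusted p = 0.0793). FZD4, the frizzled receptor with the highest level, was at 31.5, 26.8 and 32.8 FPKM in EF-high and 26.9, 15.4 and 21.5 FPKM in EF-low cells (log2 fold change -0.52, adjusted p = 0.14). Its values overlapped between the groups by a single library, EF-low 1. PRSS23 overlaps FZD4 on the opposite strand at a mean of 10.5 FPKM over all libraries. FZD2, FZD3, FZD5, FZD6, FZD8, FZD9 and LRP5 had log2 fold changes from -0.30 for FZD3 to 0.33 for FZD2, with adjusted p from 0.198 to 0.953. FZD10 did not meet the expression limit.

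The first 6 frizzled receptors by mean level were FZD4, FZD1, FZD8, FZD3, FZD6 and FZD7 in EF-high cells, from 30.4 ± 3.15 FPKM for FZD4 to 2.34 ± 0.311 FPKM for FZD7 (SD, n = 3). In EF-low cells they were FZD4, FZD8, FZD1, FZD7, FZD6 and FZD3, from 21.3 ± 5.75 to 5.99 ± 0.441 FPKM. In EF-low cells the neighbours after FZD4 differed by less than the larger of their SDs, as FZD8 at 11.3 ± 3.07 FPKM and FZD1 at 8.30 ± 2.32 FPKM did.

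Of the receptors in the set, LGR4 had the highest level in EF-low cells. LGR4 (ENSG00000205213, chromosome 11, 27387508 to 27494337, minus strand, GRCh37) was at 38.2, 28.8 and 31.3 FPKM in EF-high and at 72.3, 68.9 and 112 FPKM in EF-low 1 to 3. All EF-low libraries were above all EF-high libraries. The ratio of the mean levels was 2.58, and the log2 fold change was 1.31 (SE 0.23, limma adjusted p = 0.00553). Without EF-low 1 the log2 fold change was 1.41 (adjusted p = 0.00263). Without any one of the EF-high libraries the call was lost (adjusted p from 0.0155 to 0.0378).

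LGR5, the intestinal stem cell marker and itself a Wnt target, was at 2.67, 1.38 and 1.61 FPKM in EF-high and 5.38, 2.29 and 3.71 FPKM in EF-low cells. Its values overlapped (log2 fold change 0.71, adjusted p = 0.0963), and LGR6 did not meet the expression limit. Of the ligands of these receptors, RSPO3 was at 0.645, 0.465 and 0.817 FPKM in EF-high and at 1.40, 4.95 and 3.43 FPKM in EF-low 1 to 3. Its groups did not overlap, and its log2 fold change was 1.28 (limma adjusted p = 0.0195), or 1.65 with an adjusted p of 0.000651 without EF-low 1. Omitting any other single library gave RSPO3 an adjusted p from 0.0423 to 0.0762. RSPO2 was uncalled (log2 fold change 0.40, adjusted p = 0.275), and RSPO1 and RSPO4 did not meet the expression limit.

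**Figure D3:**
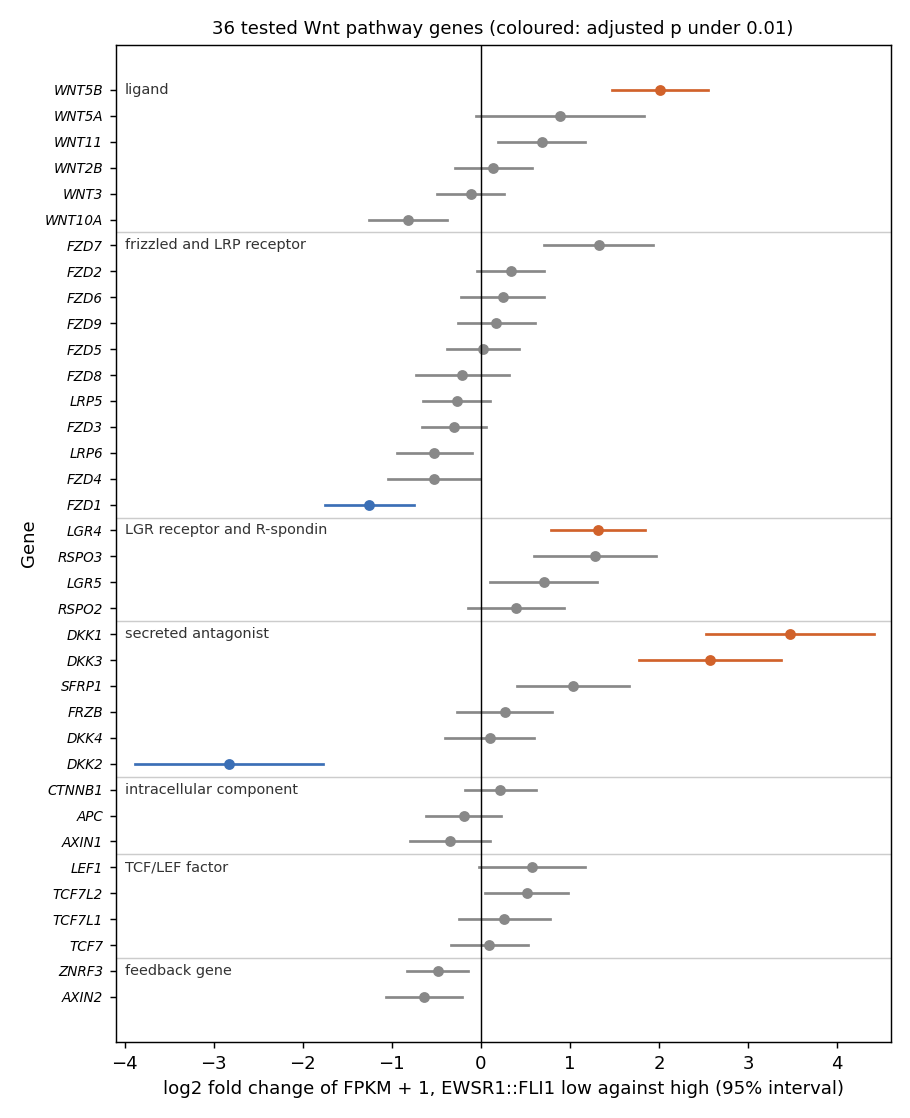
Log2 fold change of FPKM + 1 in EF-low over EF-high cells with its 95% interval for the 36 tested genes, grouped by role; orange and blue mark genes called higher and lower at an adjusted p under 0.01. The 6 coloured genes are WNT5B, LGR4, DKK1 and DKK3 on the right and FZD1 and DKK2 on the left.

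Downstream of the receptors, no tested gene of the set was called, beside 7.88% of all genes tested. These were 3 intracellular components, 4 TCF/LEF factors and 2 feedback genes, too few to tell 0 calls apart from that share. CTNNB1, which encodes β-catenin, was at 68.2, 66.6 and 69.6 FPKM in EF-high and 70.0, 78.0 and 91.4 FPKM in EF-low cells. The groups did not overlap, but the log2 fold change was 0.22 (95% interval from -0.18 to 0.61, limma adjusted p = 0.423). APC and AXIN1, scaffolds of the destruction complex, had log2 fold changes of -0.19 and -0.35 (adjusted p = 0.51 and 0.249). None of these 3 genes had an unadjusted p under 0.05, and limma-voom on recovered read numbers also called none.

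LEF1 (ENSG00000138795, chromosome 4, 108968701 to 109090112, minus strand) and TCF7L2 had the highest levels of the 4 TCF/LEF factors, in both groups, with means that differed by less than their SDs. LEF1 was at 1.18, 2.16 and 2.28 FPKM in EF-high and at 4.28, 1.92 and 3.84 FPKM in EF-low 1 to 3. EF-low 2 lay within the EF-high range, and LEF1 was uncalled with a log2 fold change of 0.57 (95% interval from -0.02 to 1.17, limma adjusted p = 0.158). TCF7L2 had a log2 fold change of 0.51 (adjusted p = 0.113) without overlap of the groups. TCF7L1 and TCF7, with 0.26 and 0.10, were uncalled as well. Of the 4 factors, 1 had an unadjusted p under 0.05 with limma, and limma-voom called none.

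The feedback genes, which β-catenin activates and whose products damp the pathway, gave no call. AXIN2 was at 2.59, 2.25 and 2.84 FPKM in EF-high and at 1.86, 1.07 and 1.00 FPKM in EF-low 1 to 3. The groups did not overlap, with a log2 fold change of -0.64 (limma adjusted p = 0.0424), or -0.80 with an adjusted p of 0.00728 without EF-low 1. In fits without any other single library, the adjusted p of AXIN2 was from 0.0953 to 0.152. ZNRF3, the ligase that removes frizzled receptors, was at 2.73, 2.78 and 3.07 FPKM and at 1.56, 1.82 and 1.90 FPKM (log2 fold change -0.49, adjusted p = 0.0519). Both had an unadjusted p under 0.05, and limma-voom called neither. RNF43 and NKD1 stayed under 0.52 FPKM in every library and were not tested. The log2 fold changes of AXIN2 and ZNRF3 were negative and those of LEF1, TCF7L2 and LGR5 positive, and none of these 5 genes was called.

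**Figure D4:**
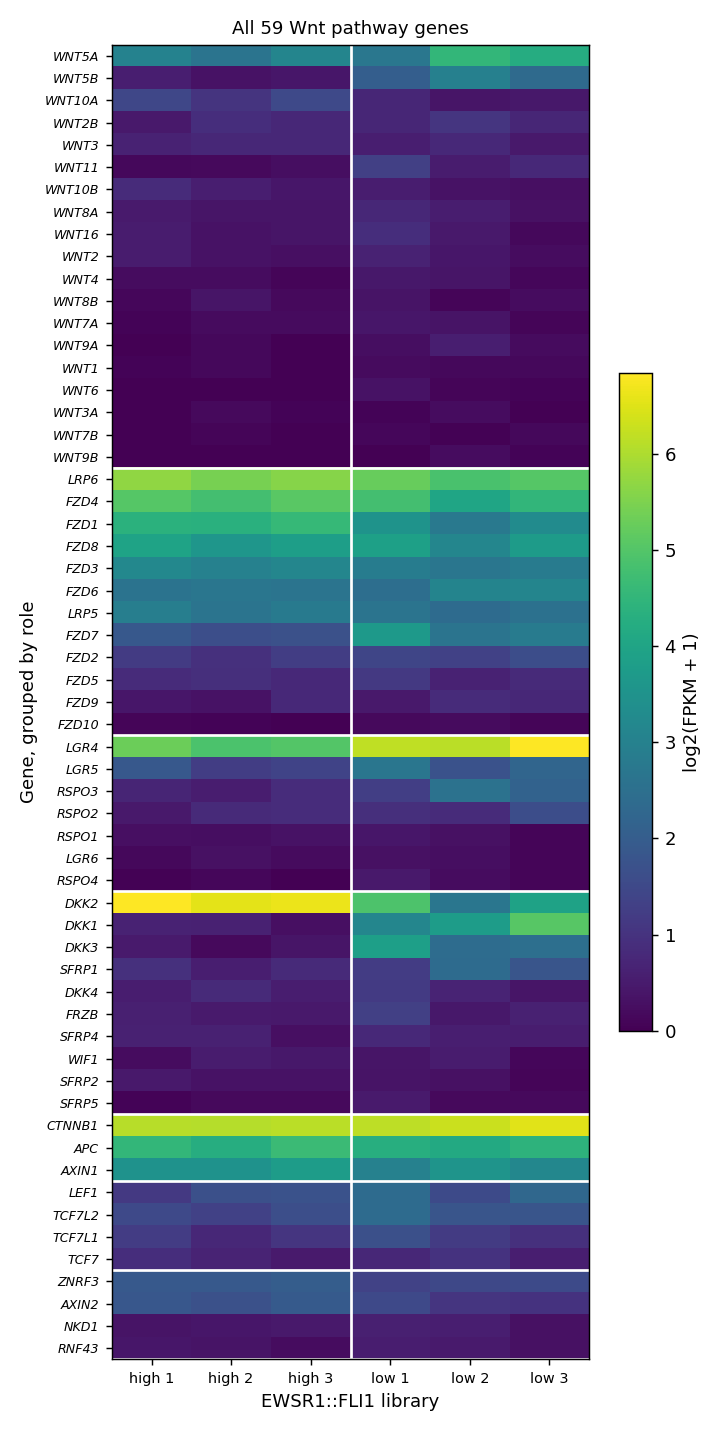
Expression as log2(FPKM + 1) of all 59 Wnt pathway genes in the 6 libraries, grouped by role and sorted by mean FPKM within each role. Most ligands are near 0, while LRP6, LGR4, CTNNB1 and, in EWSR1::FLI1 high libraries, DKK2 are the brightest rows.

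A further 70 genes of the pathway were examined by role, of which 58 met the expression limit and 11 (19.0%) were called, 8 higher and 3 lower, beside 7.88% of all genes tested, with 4.51% called higher and 3.37% called lower. Of 9 genes for other inhibitors, 4 were called. APCDD1, a membrane inhibitor of Wnt signalling and known target of the pathway, fell from 96.0 ± 9.06 to 27.2 ± 10.1 FPKM (SD, n = 3; log2 fold change -1.85, limma adjusted p = 0.00266). TPBG, which interferes with LRP6, fell from 16.8 ± 0.436 to 7.77 ± 0.674 FPKM (adjusted p = 0.00331). DACT1, a partner of dishevelled, rose from 1.40 ± 0.161 to 7.08 ± 0.885 FPKM (log2 fold change 1.75, adjusted p = 0.000236), and CTNNBIP1, which keeps β-catenin from TCF, rose from 4.84 ± 0.0842 to 9.64 ± 1.23 FPKM (adjusted p = 0.00801). NKD2, DACT2 and DACT3, intracellular members of the same group, were uncalled with log2 fold changes of -0.67, 0.34 and 0.40 (adjusted p = 0.0256, 0.287 and 0.184). NKD2 was without overlap between the groups, but met the expression limit only through the EF-high libraries (EF-low mean 0.195 FPKM). WLS, DAAM2 and BAMBI, of other roles, were also uncalled and without overlap, and these were higher in EF-low cells. Their log2 fold changes were 0.86, 0.81 and 0.87 (adjusted p = 0.0190, 0.0183 and 0.0468). Further uncalled genes without overlap went both ways. Among them PORCN, PTK7, GSK3B and DAAM1 were higher, and PYGO2 and TNKS lower (log2 fold changes -0.43 and -0.20, adjusted p = 0.111 and 0.435). Of all genes tested, 41.1% were without overlap. Without EF-low 1 the log2 fold changes of APCDD1, TPBG, DACT1 and CTNNBIP1 were -2.09, -1.06, 1.66 and 0.82 (adjusted p from 0.000223 to 0.00681).

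Of 9 genes for secretion and co-receptors, ROR1 and KREMEN1 were called. ROR1, a receptor for WNT5A, rose from 2.15 ± 0.314 to 5.55 ± 0.755 FPKM (SD, n = 3; log2 fold change 1.06, limma adjusted p = 0.00334). KREMEN1, a receptor for dickkopf proteins, rose from 1.85 ± 0.223 to 4.16 ± 0.336 FPKM (log2 fold change 0.86, adjusted p = 0.00619). The planar polarity genes PRICKLE2 and PRICKLE1 rose by log2 fold changes of 1.40 and 1.04 (adjusted p = 0.000676 and 0.00874), 2 of 11 in that group. PRICKLE2 had means of 0.178 FPKM in EF-high and 2.12 FPKM in EF-low cells. It therefore met the expression limit only through the EF-low libraries, where it was high. Without EF-low 1 the log2 fold changes of ROR1, KREMEN1 and PRICKLE2 were 0.97, 0.84 and 1.46 (adjusted p from 0.000477 to 0.0066), and that of PRICKLE1 was 0.92 with an adjusted p of 0.0119.

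TLE1, a corepressor that binds TCF, was the 1 called of 10 nuclear partners and rose from 1.64 ± 0.205 to 7.34 ± 0.526 FPKM (SD, n = 3; log2 fold change 1.66, limma adjusted p = 0.000258). Of 7 other textbook targets tested, CCND1, which encodes cyclin D1, fell from 385 ± 9.41 to 109 ± 35.6 FPKM (log2 fold change -1.87, adjusted p = 0.00123), and EPHB2 rose by 1.04 (adjusted p = 0.00795). Without EF-low 1 the log2 fold changes of TLE1, CCND1 and EPHB2 were 1.62, -1.58 and 1.21 (adjusted p from 9.5e-05 to 0.00172). None of the 12 tested genes of the destruction complex and signal transduction was called with limma, beside 7.88% of all genes tested. With 12 genes, 0 calls cannot be told apart from that share. Of the 12, 1 had an unadjusted p under 0.05, and limma-voom called none. In fits without 1 library, the calls of TLE1, DACT1, PRICKLE2 and CCND1 held each time, and those of APCDD1, TPBG, CTNNBIP1, ROR1, KREMEN1, PRICKLE1 and EPHB2 were lost without any one EF-high library (adjusted p from 0.0125 to 0.0458). Those of CTNNBIP1, ROR1, KREMEN1, PRICKLE1 and EPHB2 were also lost without EF-low 3 (adjusted p from 0.0119 to 0.0307), and those of TPBG, KREMEN1 and EPHB2 without EF-low 2 (adjusted p from 0.0104 to 0.0198). With quantile normalization APCDD1, CTNNBIP1, EPHB2, KREMEN1 and PRICKLE1 were lost (adjusted p from 0.0105 to 0.0171), and PRICKLE1 also with median-ratio scaling (adjusted p = 0.0108). When genes of any level were tested, only TLE1 and TPBG of the 11 were called.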

How the data were processed

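RNAseq libraries of 3 EWSR1::FLI1 high and 3 EWSR1::FLI1 low samples were grouped by their titles. Libraries were made with the ScriptSeq v2 kit. According to the paper and the submitters' processing notes, the authors aligned reads to GRCh37 with STAR (2.5.0b) and used Cufflinks (2.2.1) and DESeq2 (1.6.3). The authors deposited FPKM per gene symbol and library, with replicates not pooled. Per the file headers, a second deposited table gives the authors' mean of normalized counts (a mean signal over libraries), log2 fold change with standard error, Wald score and p-value. From it only the mean signal was used: after scaling to it, FPKM gave whole reads (100% of values above 0 within 0.1 reads), which gave read numbers per library. Read numbers and the floor of 3 reads cover counting error only.

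The test used log2(FPKM + 1) of the genes whose mean FPKM was 0.5 or more, with limma 3.58.1 (lmFit, eBayes with trend; R 4.3.3) and Benjamini-Hochberg adjustment over 15504 genes. The code was first tested on simulated data. Replicates differed by more than sampling noise (chi-square per degree of freedom from 4.25 to 31.5). The set of 59 genes, the list of 70 further genes and the tests were chosen with earlier results of these data known. Genes named with values are those called at an adjusted p under 0.01, DKK2, DKK1 and LEF1, and in each role the gene with the highest level and with the largest fold change. Others were added after their values were seen, among them those with an adjusted p between 0.01 and 0.05. Alternatives were a pseudocount of 0.1, no expression limit or one of 1, quantile normalization, median-ratio scaling, sample quality weights, no trend in eBayes, a replicate block, limma-voom on recovered reads, an adjusted p under 0.05, and leaving out each library. Gene positions are from GENCODE v44 lifted to GRCh37. Promoters are RefSeq sequences found in GRCh37 by exact match. Protein sequences, isoforms, RT-qPCR and functional assays were not analysed here.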

Additional observations from a re-analysis of the deposited data

How the results depend on the processing

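No direction reversed for FLI1 or for any of the 31 Wnt pathway genes followed through the alternatives. All 6 calls among the Wnt genes remained with a pseudocount of 0.1, an expression limit of 1, median-ratio scaling, eBayes without trend, a replicate block and sample quality weights. With quantile normalization DKK2 (adjusted p = 0.0171) and FZD1 (adjusted p = 0.015) were lost and WNT10A was called (adjusted p = 0.00691), which gave 4 higher and 1 lower, and limma-voom on recovered reads lost DKK3 (adjusted p = 0.01003), leaving 3 higher and 2 lower. Without an expression limit, which added 10860 genes to the test, 0 members were higher and 0 lower (10 and 7 with an unadjusted p under 0.05), 1 further pathway gene was higher and 1 lower, and FLI1 had a log2 fold change of -1.57 with an adjusted p of 0.0157. With sample quality weights, 8 members were higher and 6 lower, and 13 and 5 of the further genes. At an adjusted p under 0.05, 7 members were higher and 4 lower. In fits without 1 library, from 2 to 8 members were higher and from 0 to 4 lower, and from 3 to 10 and from 1 to 3 of the further genes. The largest counts came without EWSR1::FLI1 low replicate 1, and no member was called lower without any one EWSR1::FLI1 high library or without EWSR1::FLI1 low replicate 3 (5 or 6 lower with an unadjusted p under 0.05). The share of all genes with an unadjusted p under 0.05 was not counted. Over all genes, 1222 were called, against 124 without an expression limit, 1992 with quantile normalization, 2098 with limma-voom, 4745 with quality weights, and 475 to 2334 without 1 library. The causes were not tested.

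With the replicate block, 5 members were higher, FZD7 being added (adjusted p = 0.003), and 2 lower, and 9 and 3 of the further genes. Deviations of same-numbered libraries correlated across genes with r = 0.27, 0.09 and 0.12. Differently numbered libraries gave r from -0.29 to -0.008, except replicate 3 of EWSR1::FLI1 high with replicate 2 of EWSR1::FLI1 low (r = 0.19). That replicate 3 thus correlated better with another number than with its own. With the replicate block 1702 of all genes were called, against 1222 without it. Whether the numbers pair the libraries cannot be told from these values, and the main fit does not use them. Depth limits genes such as WNT11 and WNT6, which had at most 3 reads in each EWSR1::FLI1 high library.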
